A study of Canis lupus familiaris with 16 samples.

Results

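Integrins and laminins are the genes described here: every symbol of the deposited tables that names an integrin alpha or beta chain or a laminin alpha, beta or gamma chain. The choice used names alone and no measured value. It gave 38 of 39543 symbols, of which 18 code for integrin alpha chains, 8 for integrin beta chains and 12 for laminin chains; 37 are described. Integrins are cell-surface receptors made of 1 alpha and 1 beta chain that hold cells to the extracellular matrix and pass signals inward through adaptors such as talins and kindlins. Laminins are secreted trimers of an alpha, a beta and a gamma chain that form the sheet of the basement membrane. In epithelia, laminin with the LAMA3 and LAMB3 chains is bound by the ITGA3-ITGB1 integrin and, in hemidesmosomes, by the ITGA6-ITGB4 integrin. The ITGAV product pairs with several beta chains, among them those of ITGB3, ITGB5, ITGB6 and ITGB8, and ITGB2 and its alpha partners are known as leukocyte integrins.

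The study sequenced RNA after 24 h of treatment from 4 canine hepatocellular carcinoma lines, each established from a liver tumour of a dog: KU-cHCC-001, then KU-cHCC-002 with KU-cHCC-004, and also KU-cHCC-005 (called lines 001, 002, 004 and 005 where values are listed). Sorafenib was given at 30 µM and toceranib at 15 µM; both are inhibitors of receptor tyrosine kinases. The vehicles were DMSO for sorafenib and DPBS, a buffered saline, for toceranib. Each line gave 1 library per treatment, 16 in all. KU-cHCC-001 (3 libraries) was set against the other 3 lines (9 libraries), and each drug (4 libraries) against DMSO (4 libraries) with the line as a block. Toceranib against DMSO therefore differs in drug and vehicle together, and their shares in any difference cannot be told apart. Each line is a single culture model, and nothing in the labels says that libraries of a line came from separate cultures.

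Total counts per library ran from 12008366 to 21943572, and the 37 genes took 0.399% to 0.711% of them. Library pairs were compared by their squared count difference over that of sampling noise. The DPBS libraries labelled 002 and 005 differed by 2.28 times sampling noise, and those labelled 001 and 004 by 2.43 times, against 33.5 for toceranib and DMSO of KU-cHCC-004. Of the 4 DPBS libraries, 3 correlated best with the DMSO library of another line, and the one labelled 005 with its own (0.288, next 0.133). The same-line correlation with DMSO was -0.449 to 0.288, against 0.750 to 0.892 between sorafenib and DMSO. In the DPBS library labelled 001, 11 epithelial markers summed to 18675 CPM, against 2107 to 3302 CPM in the other KU-cHCC-001 libraries. Markers of a mesenchymal state, 10 genes, summed to 2004 CPM there, against 9920 to 14242 CPM. The DPBS libraries were left out of the fits below except where named. Toceranib libraries of KU-cHCC-004 and KU-cHCC-005 were closer to each other (12.1 times noise) than to their own DMSO libraries. Of 18 stromal markers, the KU-cHCC-005 one had 13 at 1 CPM or more (counts scaled to a common library total), summing to 896 CPM. The DMSO and sorafenib libraries had 2 to 7, summing to 23.1 to 260 CPM. The KU-cHCC-004 one was inside these ranges, with 7 and 241 CPM. TAGLN made up 191 CPM of that sum and had 210 CPM in DMSO-treated KU-cHCC-004. The fibrillar collagen COL3A1 had 6.54 CPM in toceranib-treated KU-cHCC-004 and 51.7 CPM in toceranib-treated KU-cHCC-005. It was at 0 in all DMSO and sorafenib libraries. The labelled liver cell type was not visible in its defining gene: the albumin gene ALB stayed at or below 0.424 CPM in the 12 libraries. A list of 11 hepatocyte markers summed to 3.57 to 32.5 CPM in KU-cHCC-001 and 48.8 to 202 CPM in the other lines. Each library had 1 to 3 of the 11 at 1 CPM or more. HNF4A had 2.69 to 96.6 CPM and APOB 0.0844 to 138 CPM, while CYP2E1 and SERPINA1 were at 0 throughout. Epithelial markers were present, and 11 of 11 reached 1 CPM in the other lines and 10 of 11 in KU-cHCC-001.

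Of the 37 genes, 10 stayed under 1 CPM in all 12 libraries of the main comparisons: ITGA4, ITGA9, ITGA11, ITGAD, ITGAL, ITGAM, ITGAX, LAMA1, LAMA2 and LAMB4. Their highest values ran from 0.0529 CPM to 0.751 CPM, with 1 count worth 0.0456 to 0.0833 CPM depending on the library. ITGAD, ITGAL, ITGAM and ITGAX are the alpha partners of ITGB2 on leukocytes. LAMA1 showed reads in the 3 KU-cHCC-001 libraries, at 0.132 CPM with sorafenib, 0.751 CPM with toceranib and 0.265 CPM with DMSO, and was at 0 in the 9 libraries of the other lines. A further 27 genes reached 1 CPM in at least 1 library, and 20 of these did so in all 12.

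Both ITGA8 and LAMA4 passed 1 CPM in 1 library only and were not tested. ITGA8, an alpha chain of mesenchymal and smooth muscle cells, had 91 counts (3.80 CPM) in toceranib-treated KU-cHCC-001 and no more than 0.166 CPM in the other 11 libraries. LAMA4, a laminin chain of vessels and mesenchyme, had 4.24 CPM in toceranib-treated KU-cHCC-005 and no more than 0.321 CPM in the other 11. That library had the highest stromal marker sum of the 12. LAMA4 was also at 7.05 and 7.11 CPM in the DPBS libraries labelled 002 and 005, where the stromal sum was 957 and 1079 CPM, and at 0 in the DPBS libraries labelled 001 and 004. The part of stromal RNA in these values was not tested.

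The other 25 genes, 18 integrins and 7 laminins, were tested with edgeR's quasi-likelihood test among 15866 genes, and a difference was called at an adjusted p under 0.05 (Benjamini-Hochberg over all genes). LAMC3 passed the filter on low counts only through KU-cHCC-001, where it is high, so that its call in the line comparison carries no weight of its own. In bulk RNA, fewer cells of a type and less RNA per cell cannot be told apart.

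**Figure D1:**
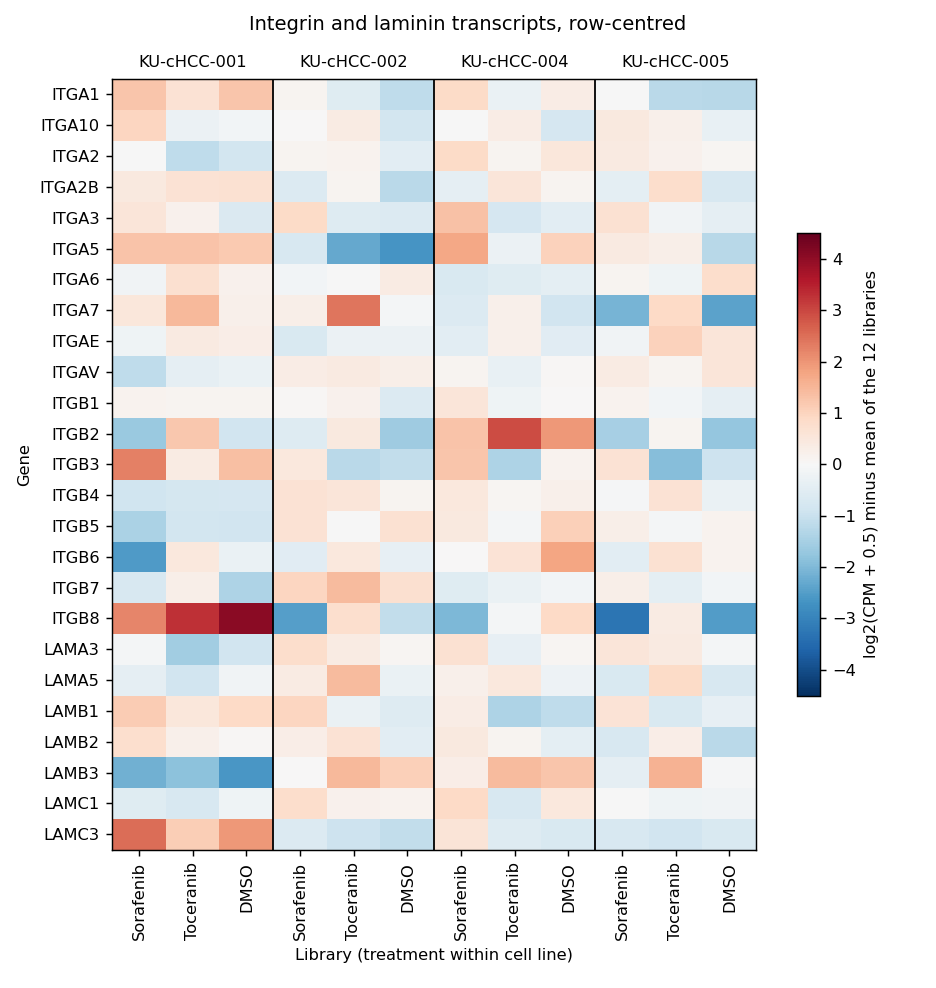
Level of each of the 25 tested genes (rows) in each of the 12 libraries (columns, grouped by line), as log2(CPM + 0.5) minus the gene's mean over the 12 libraries, red above and blue below that mean. The 3 columns of KU-cHCC-001 are red for ITGB8 and LAMC3 and blue for LAMB3, and the sorafenib columns are redder than the DMSO columns of the same line for ITGA3 and ITGB3.

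Transcripts of matrix receptors and laminins differed between KU-cHCC-001 and the other 3 lines. The epithelial laminin chains LAMB3 and LAMA3 were 7.57-fold and 2.14-fold lower in KU-cHCC-001, and the hemidesmosomal ITGB4 was 2.13-fold lower. The integrins ITGB8, ITGB3, ITGA5 and ITGA1 and the laminin chains LAMC3 and LAMB1 were higher, ITGB8 by 20.9-fold. Of the 25 genes, 8 were higher and 7 lower, and 10 did not pass the test. KU-cHCC-001 differed from the other lines over the whole transcriptome, with 45.1% of all tested genes called (25.7% higher, 19.4% lower). LAMC3, which passed the filter only through KU-cHCC-001, is among the 8. Without it, 14 of 24 (58.3%) were called, 7 in each direction, against 42.7% of the 14818 genes that pass the filter in the other lines alone. The median difference of the 24 was 0.12 on the log2 scale, against -0.01 over those genes.

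Among the laminins, LAMB3, a beta chain of epithelial laminin, had 113, 141 and 83.4 CPM in sorafenib-, toceranib- and DMSO-treated KU-cHCC-001, against 390 to 1508 CPM in the other lines (median 1073, 9 libraries). Every KU-cHCC-001 library lay below every library of the other lines. The log2 difference was -2.92 ± 0.33 (SE; edgeR adjusted p = 2.5e-05).

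LAMA3, an alpha chain of the same epithelial laminin, had 182, 64.8 and 107 CPM in KU-cHCC-001 in that order of treatments, against 151 to 334 CPM in the other lines (median 249), with a log2 difference of -1.10 ± 0.22 (edgeR adjusted p = 0.0016). Its sorafenib library lay inside the range of the other lines and the other 2 lay below it. LAMC1, the gamma chain common to most laminins, had a log2 difference of -0.66 ± 0.23 (edgeR adjusted p = 0.039), and its call was lost in 9 of 15 fits that left out 1 library or 1 line (adjusted p up to 0.162, without sorafenib-treated KU-cHCC-001).

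LAMB1 and LAMC3 went the other way. LAMB1, a beta chain of widespread laminins, had 701, 446 and 584 CPM in KU-cHCC-001, against 121 to 620 CPM in the other lines (median 242), and its log2 difference was 1.16 ± 0.19 (edgeR adjusted p = 4.4e-04). The top of the other lines was their sorafenib libraries, so that the ranges overlapped. LAMC3, a gamma chain with a narrow tissue range, had 129, 43 and 69 counts in KU-cHCC-001 (5.66, 1.80 and 3.65 CPM), against 0 to 21 counts in the other lines (highest 1.09 CPM, median 0.165 CPM). The log2 difference was 4.42 ± 0.44. LAMA5 (-0.53, adjusted p = 0.22) and LAMB2 (0.47, adjusted p = 0.090) were not called by edgeR.

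**Figure D2:**
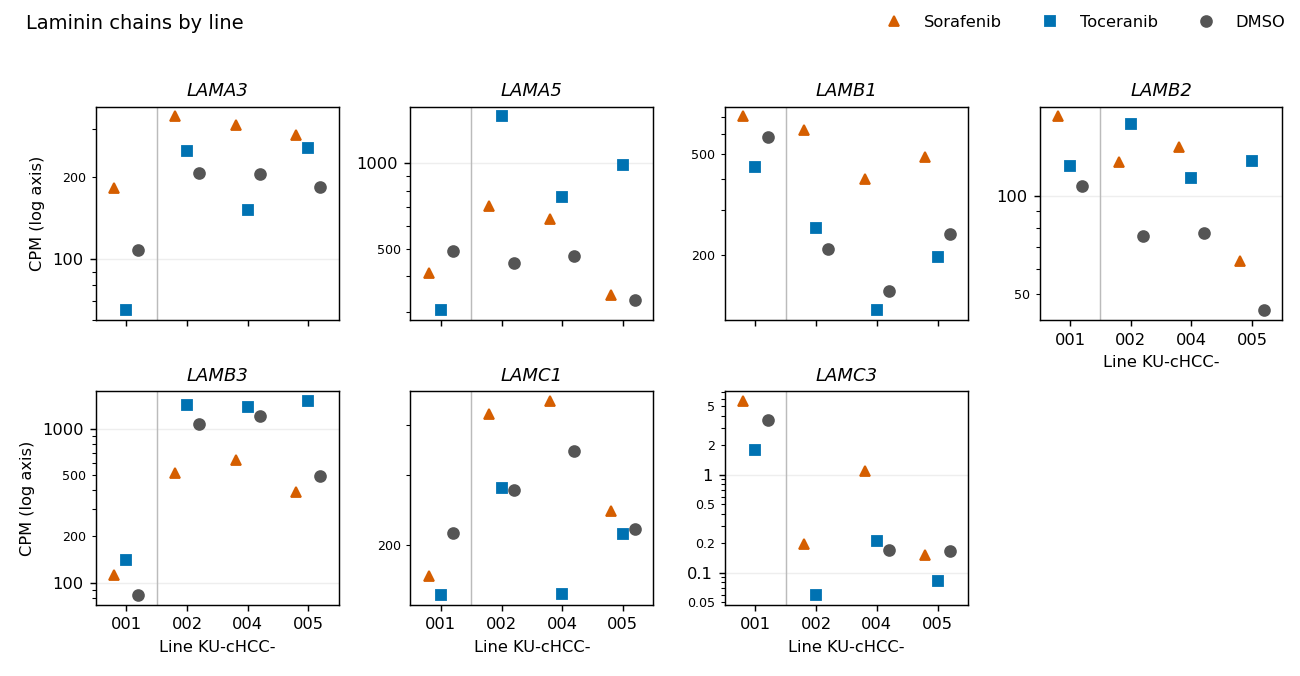
CPM (log axis, a range of its own in each panel) of the 7 tested laminin genes in each line, with 1 point per library for sorafenib, toceranib and DMSO; LAMC3 in DMSO-treated KU-cHCC-002 had 0 counts and is not drawn. The 3 points of KU-cHCC-001 lie below all others for LAMB3 and above all others for LAMC3.

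Among the integrins, ITGB8 stood farthest apart. This beta chain, which pairs with the ITGAV product and binds latent TGF-beta, had 67.8, 144 and 250 CPM in sorafenib-, toceranib- and DMSO-treated KU-cHCC-001, against 1.02 to 27.0 CPM in the other lines (median 6.36). The lowest KU-cHCC-001 library was above the highest of the others, and the log2 difference was 4.39 ± 0.51 (edgeR adjusted p = 5.7e-05). ITGB3, another ITGAV partner and a receptor for vitronectin and osteopontin, had 80.9, 21.0 and 42.9 CPM in KU-cHCC-001, against 3.99 to 39.0 CPM in the other lines (median 8.27). The ranges overlapped, and with the treatments in the fit the log2 difference was 1.81 ± 0.20 (edgeR adjusted p = 2.5e-05).

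ITGA5, the alpha chain of the main fibronectin receptor, had 116, 118 and 110 CPM in KU-cHCC-001, against 7.18 to 160 CPM in the other lines (median 39.7). Its level was even across treatments in KU-cHCC-001 and varied widely among the others, being lowest in KU-cHCC-002 under each treatment. The log2 difference was 1.66 ± 0.35 (edgeR adjusted p = 0.0031), and 0.85 without KU-cHCC-002 (adjusted p = 0.106). ITGA1, the alpha chain of a collagen receptor, had 36.7, 23.9 and 35.9 CPM in KU-cHCC-001, against 6.07 to 27.9 CPM in the other lines (median 12.03), and a log2 difference of 1.45 ± 0.22 (edgeR adjusted p = 2.4e-04).

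The calls of ITGA2B and ITGA7 were less steady. ITGA2B, the platelet alpha chain, rested on 28, 37 and 30 counts in KU-cHCC-001, with a log2 difference of 1.35 ± 0.48 (edgeR adjusted p = 0.039) that was not called in 9 of 15 fits leaving out a library or line (adjusted p up to 0.285, without DMSO-treated KU-cHCC-001). A list of 5 platelet markers summed to no more than 1.61 CPM in any of the 12 libraries. ITGA7, a laminin-binding alpha chain best known from muscle, had 18.1, 35.8 and 14.9 CPM in KU-cHCC-001, against 1.98 to 69.3 CPM in the other lines (median 11.8), and a log2 difference of 1.01 ± 0.33 (edgeR adjusted p = 0.026). It was not called without KU-cHCC-005 (0.51, adjusted p = 0.164) or without the DMSO (0.76, adjusted p = 0.179) or sorafenib library (0.77, adjusted p = 0.163) of KU-cHCC-001, or the DMSO library of KU-cHCC-002 (0.97, adjusted p = 0.0539).

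Of the integrins that were lower in KU-cHCC-001, ITGB4 and ITGB5 had no overlap. ITGB4, the hemidesmosomal beta chain, had 465, 500 and 506 CPM in sorafenib-, toceranib- and DMSO-treated KU-cHCC-001, against 707 to 1342 CPM in the other lines (median 1011), a log2 difference of -1.09 ± 0.21 (edgeR adjusted p = 0.0014). ITGB5, a vitronectin receptor chain, had 29.4, 44.2 and 44.0 CPM in KU-cHCC-001, against 75.6 to 169 CPM in the other lines (median 95.4), a log2 difference of -1.37 ± 0.22 (edgeR adjusted p = 4.3e-04). ITGAV, the alpha partner of ITGB5, ITGB3 and ITGB8, had a log2 difference of -0.79 ± 0.20, and the collagen receptor chain ITGA2 one of -0.88 ± 0.20 (edgeR adjusted p = 0.0066 and 0.0040), both with overlapping ranges. Chains of broad laminin receptors were not called: ITGA3 differed by 0.07, ITGA6 by 0.37 and ITGB1 by 0.17 on the log2 scale. ITGB1 had 606 to 618 CPM in KU-cHCC-001, against 364 to 824 CPM in the other lines.

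**Figure D3:**
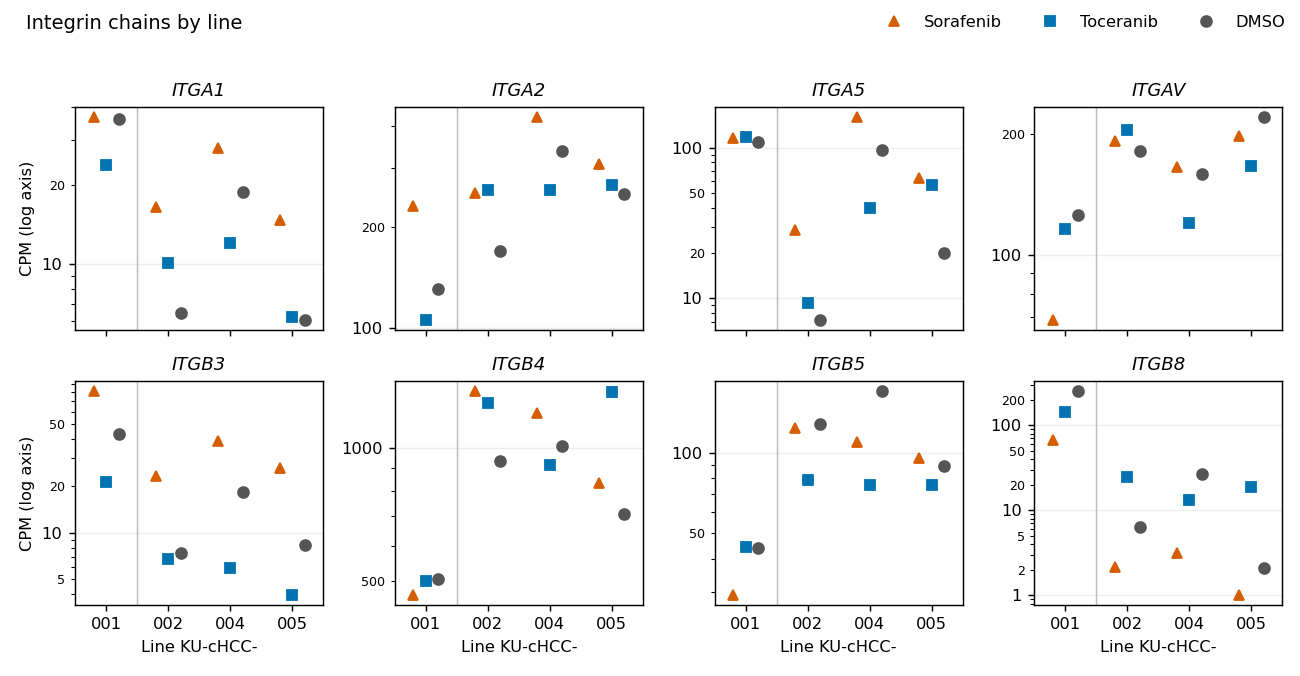
CPM (log axis, a range of its own in each panel) of integrin genes in each line, with 1 point per library for sorafenib, toceranib and DMSO. KU-cHCC-001 lies above the other lines for ITGB8 in all 3 libraries (67.8 to 250 CPM) and below them for ITGB4 and ITGB5.

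All 15 called genes, LAMC3 among them, kept their sign within each of the 3 treatments. The contrast that called them averages over the same treatments, so that the shared sign is in part set by the selection. Over all tested genes, 12.6% had the 3 KU-cHCC-001 libraries above the other 9 and 8.74% had them below; without LAMC3, these were 1 (ITGB8) and 3 (ITGB4, ITGB5 and LAMB3) of the 24, against 8.99% and 9.35% of the genes that pass the filter in the other lines alone. LAMC3 also lay above. Markers of a mesenchymal state moved with the line: 10 genes summed to 9920 to 14242 CPM in KU-cHCC-001, against 1911 to 3742 CPM in the other lines, while 11 epithelial markers summed to 2107 to 3302 CPM against 18189 to 33932 CPM. Their part in the integrin and laminin differences was not tested. The p-values compare libraries of 1 line with those of 3, and over lines no permutation p below 0.25 is possible, so that they describe these 4 lines.

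Partner genes of integrins and laminins differed in KU-cHCC-001 as well. Of 27 tested basement membrane genes and other laminin receptors, 14 were higher and 6 lower. That is 74.1% called, against 45.1% of all tested genes (25.7% higher, 19.4% lower). Their median was 0.48 on the log2 scale, against 0.05 over all genes. Some of the 27 may have passed the filter on low counts only through KU-cHCC-001, so that the count and median may be set in part by the filter. The collagen IV chains COL4A1 and COL4A2 had log2 differences of 8.44 ± 0.51 and 7.91 ± 0.63, nidogen NID1 7.38 ± 0.92 and the collagen-binding matrix protein gene SPARC 5.53 ± 0.71. Among those lower were FBLN1 at -4.85 ± 0.50, and perlecan HSPG2 and agrin AGRN at -1.26 ± 0.29 and -1.23 ± 0.32. COL4A1 had 37.7 to 91.1 CPM in KU-cHCC-001, against 0 to 3.01 CPM in the other lines.

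Of 21 integrin ligands tested, 14 were higher and 3 lower in KU-cHCC-001 (median 1.73). Those named were the microfibril gene FBN1 (10.15 ± 1.48), TGFBI (7.09 ± 0.39), L1CAM (6.99 ± 0.77) and LTBP1 (6.03 ± 0.51), against E-cadherin CDH1 (-3.20 ± 0.25), CCN2 (-2.23 ± 0.47) and the epithelial ligand NPNT (-1.41 ± 0.24). Of 38 integrin adaptors and focal adhesion genes, 14 were higher and 9 lower (median 0.07). The talin-binding KANK1 (7.27 ± 0.55), filamin FLNC (5.33 ± 0.43), parvin PARVB (3.91 ± 0.57) and tensin TNS1 (2.13) were higher. The kinase PTK2B (-2.74 ± 0.31), the epithelial kindlin FERMT1 (-2.27 ± 0.35), TNS4 (-1.45 ± 0.32) and LIMS2 (-1.28 ± 0.42) were lower. All of these passed edgeR's test at an adjusted p under 0.05, as did 45.1% of all genes. Like LAMC3, TGFBI passed the filter only through KU-cHCC-001, and other genes of the 3 lists may have done so. In the other lines TGFBI had at most 0.471 CPM, COL4A1 at most 3.01 CPM and FBN1 at most 6.24 CPM. Calls of such genes carry no weight of their own. The counts and medians of the lists include them, and the lists were not counted again without them.

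With sorafenib at 30 µM, ITGA3, ITGB3, LAMB1 and LAMB2 rose and ITGB8 fell, each in 4 of 4 lines. ITGA3 rose 2.68-fold and ITGB3 2.48-fold, and ITGB8 was 4.17-fold lower. Of the 25 genes, 4 rose and 1 fell, and 18.1% of all tested genes were called (8.84% higher, 9.25% lower). Their median log2 change was 0.22, against -0.03 over all genes. An unadjusted p under 0.05 was seen for 13 of the 25 and for 33.1% of all genes.

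ITGA3, the alpha chain of a laminin receptor of epithelia, had 661, 819, 1120 and 726 CPM with sorafenib in lines 001, 002, 004 and 005, against 286, 296, 323 and 336 CPM with DMSO in the same order. All 4 sorafenib libraries were above all 4 DMSO libraries, as was the case for 5.8% of all genes, while 5.54% had them all below; of the 25, these were 2 (ITGA3 and ITGA10) and 0. The log2 change was 1.42 ± 0.24 (edgeR adjusted p = 0.0040). ITGB3 had 80.9, 23.0, 39.0 and 26.0 CPM with sorafenib, against 42.9, 7.36, 18.2 and 8.27 CPM with DMSO in the same lines, and a log2 change of 1.31 ± 0.24 (edgeR adjusted p = 0.0050). The groups overlapped because DMSO-treated KU-cHCC-001 was above 3 sorafenib libraries, while each line rose by itself. The calls of ITGA3 and ITGB3 held in all 16 fits that left out a library or line.

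ITGB8 fell in every line. It had 67.8, 2.16, 3.13 and 1.02 CPM with sorafenib, against 250, 6.36, 27.0 and 2.10 CPM with DMSO, and a log2 change of -2.06 ± 0.62 (edgeR adjusted p = 0.043). The per-line changes on log2(CPM + 0.5) were largest in KU-cHCC-004, at -2.92, and smallest in KU-cHCC-005, at -0.77. The order of the lines was the same with sorafenib and with DMSO. The call was lost in 10 of 16 fits that left out a library or line, with an edgeR adjusted p of up to 0.171 (without sorafenib-treated KU-cHCC-004).

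Among the laminins, LAMB1 had 701, 620, 399 and 485 CPM with sorafenib, against 584, 212, 144 and 242 CPM with DMSO, a log2 change of 1.08 ± 0.22 (edgeR adjusted p = 0.0077). Its rise was smallest in KU-cHCC-001, at 0.26 on log2(CPM + 0.5), where the DMSO level was already the highest, and 1.00 to 1.55 in the other lines.

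LAMB2, a beta chain of mature basement membranes, had 175, 127, 141 and 63.2 CPM with sorafenib, against 107, 75.5, 77.2 and 44.7 CPM with DMSO, a log2 change of 0.72 ± 0.23 (edgeR adjusted p = 0.049). The change was of like size in the lines, 0.50 to 0.87. The epithelial chains LAMA3 and LAMB3 were not called. LAMA3 had 182, 334, 309 and 284 CPM with sorafenib and 107, 207, 205 and 184 CPM with DMSO (0.67 ± 0.22, adjusted p = 0.052), and LAMB3 had 113, 513, 623 and 390 CPM with sorafenib and 83.4, 1073, 1208 and 495 CPM with DMSO (-0.48 ± 0.29, adjusted p = 0.27, edgeR). LAMA3 was higher in 4 of 4 lines and LAMB3 in 1 of 4.

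**Figure D4:**
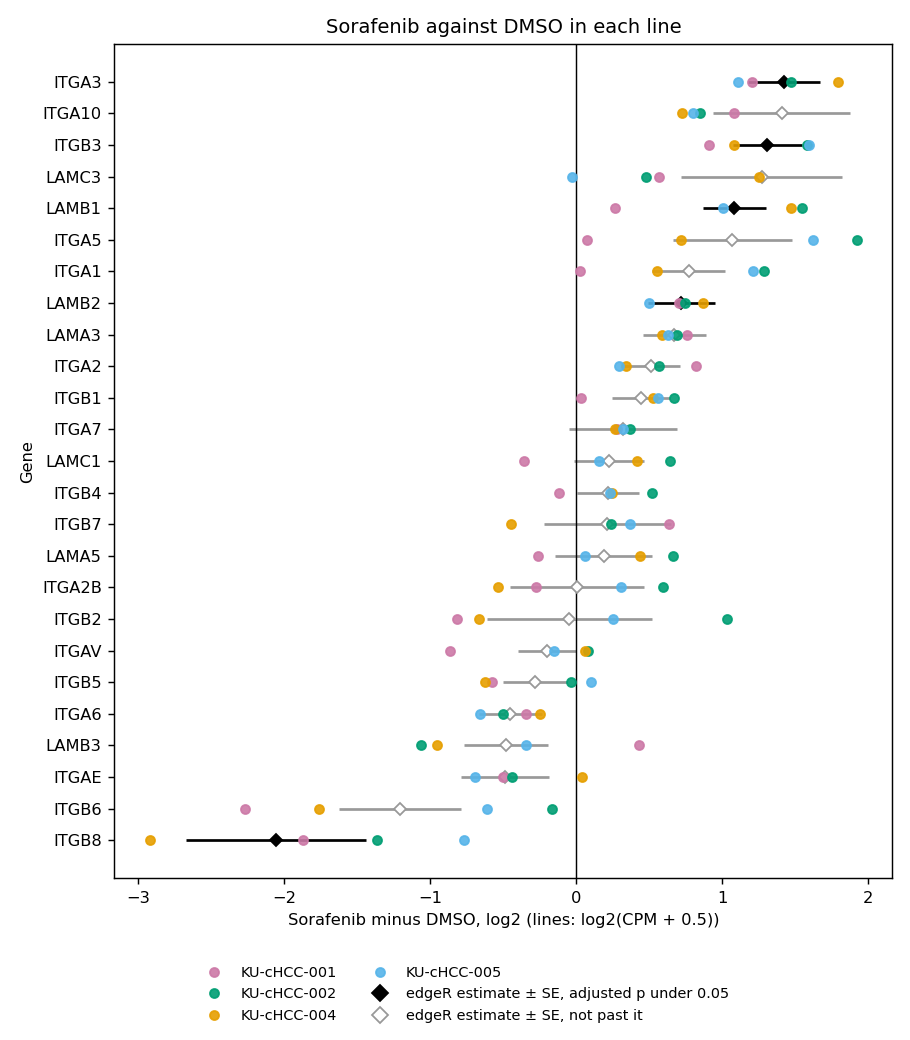
Sorafenib minus DMSO on the log2 scale for the 25 tested genes, ordered by the edgeR estimate (diamond ± SE, filled where the adjusted p was under 0.05), with 1 dot per line on log2(CPM + 0.5). All 4 dots lie right of 0 for ITGA3, ITGB3, LAMB1 and LAMB2 and left of 0 for ITGB8.

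Of the genes that missed the threshold, ITGA10, an alpha chain of a collagen receptor known from cartilage, had low values of 2.24, 0.932, 0.886 and 1.43 CPM with sorafenib, against 0.794, 0.294, 0.340 and 0.607 CPM with DMSO (1.41 ± 0.47, edgeR adjusted p = 0.058), with no overlap between groups. ITGA1 (0.77, adjusted p = 0.054), ITGB6, an epithelial ITGAV partner (-1.21, adjusted p = 0.067), and ITGA5 (1.07, adjusted p = 0.096) had the same sign in 4 of 4 lines. ITGA5 differed by 0.08 in KU-cHCC-001 and by 0.72 to 1.92 in the other lines. With the 8 sorafenib and DMSO libraries alone, 10 genes were higher and 3 lower, adding ITGA1, ITGA10, ITGA2, ITGA5, ITGB1 and LAMA3 above, and ITGA6 and ITGB6 below. With the line left out of the fit as a block, 1 was higher and 0 lower. LAMB1 lost its call on leaving out KU-cHCC-002 (adjusted p = 0.0585), KU-cHCC-004 (0.0774) or KU-cHCC-005 (0.0538). LAMB2 lost it in 12 of 16 such fits (up to 0.202, without KU-cHCC-004).

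Partner genes were called with sorafenib at shares of 18.4% (adaptors), 7.41% (basement membrane genes and laminin receptors) and 9.52% (ligands), against 18.1% of all genes. Of 38 adaptors, 4 rose (PARVB by 2.88 ± 0.66, LIMS1 by 1.28 ± 0.19, DST by 0.67 ± 0.21 and CRKL by 0.60 ± 0.14 on the log2 scale) and 3 fell (TNS4 at -1.22 ± 0.32, TNS1 at -1.17 ± 0.31 and vinculin VCL at -0.76 ± 0.21). LIMS1, a partner of integrin-linked kinase, averaged 110 ± 16.7 CPM with sorafenib and 45.7 ± 11.8 CPM with DMSO (SD, n = 4 each). Of 27 basement membrane genes and laminin receptors, 1 rose, the galectin LGALS3 (1.07 ± 0.27), and 1 fell, syndecan SDC1 (-0.68 ± 0.20). Of 21 ligands, ICAM1, which binds the leukocyte integrins, rose (0.67 ± 0.21) and osteopontin SPP1, a ligand of ITGB3 receptors, fell (-3.01 ± 0.48). The share of counts on mitochondrial genes also differed, at 0.782% to 1.51% with sorafenib and 3.16% to 4.05% with DMSO, and its part was not tested.

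With toceranib at 15 µM, set against DMSO, ITGB2, ITGA7 and LAMB2 were higher and ITGB3 was lower, 4 of 25 genes, where 7.07% of all genes were called (3.98% higher, 3.09% lower). Their median log2 difference was 0.24, against -0.01 over all genes, and 9 of the 25 had an unadjusted p under 0.05, as did 27.4% of all genes. Against DPBS, toceranib's own vehicle, edgeR called 0 of the 25 and 0% of all 15515 genes tested in the 16 libraries; 5 of the 25 and 12.1% of all genes had an unadjusted p under 0.05. That fit blocks by line labels, and 3 of the 4 DPBS libraries matched the DMSO library of another line best. Of the 4 toceranib libraries, 0 matched the DPBS library of their own label best, with same-label correlations of -0.505 to 0.550. In the same fit toceranib against DMSO had 1 gene higher and 0 lower, so that the count fell with the fit as well as with the vehicle.

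ITGA7 had 35.8, 69.3, 15.0 and 24.2 CPM with toceranib in lines 001, 002, 004 and 005, against 14.9, 11.8, 6.69 and 1.98 CPM with DMSO. All 4 toceranib libraries were above all 4 DMSO libraries, as for 3.85% of all genes (3.64% had them all below); of the 25 these were 2, ITGA7 and LAMB2, and 0. The log2 difference was 2.20 ± 0.39 (edgeR adjusted p = 0.017). Its highest value came from KU-cHCC-002, the toceranib library with the lowest stromal marker sum (28.6 CPM), and the part of stromal RNA was not tested. The DPBS libraries labelled 001, 002, 004 and 005 had 39.0, 19.9, 43.4 and 17.8 CPM. Toceranib minus DPBS was 0.16 ± 0.47 (adjusted p = 0.92), and DPBS minus DMSO was 2.08 ± 0.48 (adjusted p = 0.038), so that the toceranib and the DPBS libraries were both above DMSO.

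LAMA5, the alpha chain of most adult epithelial basement membranes, was the other gene of the 25 that was called between the vehicles, where 4.63% of all genes were (2.91% higher and 1.72% lower with DPBS). It had 303, 1463, 760 and 988 CPM with toceranib, 1048, 1108, 1187 and 1062 CPM with DPBS, and 493, 445, 472 and 331 CPM with DMSO. DPBS minus DMSO was 1.33 ± 0.33 (edgeR adjusted p = 0.043), toceranib minus DMSO 0.88 ± 0.34 (adjusted p = 0.13), and toceranib minus DPBS -0.40 ± 0.33 (adjusted p = 0.63). For ITGA7 and LAMA5 alike, p-values that use DPBS take its line labels as given and its close pairs as separate libraries. With toceranib, KU-cHCC-001 was below its DMSO library and the other 3 lines were above theirs.

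ITGB2, the common beta chain of the leukocyte integrins, had 5.18, 2.79, 18.2 and 2.16 CPM with toceranib, against 0.847, 0.294, 8.90 and 0.221 CPM with DMSO (2.31 ± 0.54, edgeR adjusted p = 0.033). It was higher in 4 of 4 lines, with overlap from DMSO-treated KU-cHCC-004. The DPBS libraries held 1.503, 2.84, 0.888 and 2.17 CPM, and toceranib minus DPBS was 0.96 ± 0.81 (adjusted p = 0.65). A list of 14 leukocyte markers summed to 64.5 to 339 CPM with toceranib and 17.8 to 90.6 CPM with DMSO, with 4 of them at 1 CPM or more with toceranib and 3 to 5 with DMSO. CD3E, CD4, FCER1G and TYROBP were at 0 in all 12 libraries and the pan-leukocyte PTPRC was at most 0.442 CPM. CD14 had 12.3 to 71.7 CPM with toceranib and 11.6 to 84.4 CPM with DMSO. CORO1A had 0.954 to 31.6 CPM over the 12 libraries. In the top sum, that of toceranib-treated KU-cHCC-001, CD74 was at 321 CPM. The part of leukocyte RNA was not tested.

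LAMB2 had 123, 166, 113 and 127 CPM with toceranib, against 107, 75.5, 77.2 and 44.7 CPM with DMSO (0.89 ± 0.23, edgeR adjusted p = 0.044), with no overlap. Toceranib minus DPBS was 0.53 ± 0.24 (edgeR adjusted p = 0.41) and higher in 4 of 4 same-label pairs, though 0 of these 4 pairs were best matches. ITGB3 had 21.0, 6.77, 5.94 and 3.99 CPM with toceranib, against 42.9, 7.36, 18.2 and 8.27 CPM with DMSO (-0.95 ± 0.24, edgeR adjusted p = 0.041). It was lower in every line, least so in KU-cHCC-002, and toceranib minus DPBS was -0.27 ± 0.33 (adjusted p = 0.76). Without the toceranib libraries of KU-cHCC-004 and KU-cHCC-005 none of the 4 was called: ITGB2 differed by 2.63 (edgeR adjusted p = 0.132), ITGA7 by 1.95 (0.0787), LAMB2 by 0.68 (0.220) and ITGB3 by -0.57 (0.341). When a library or line was left out, the call of LAMB2 was lost in 13 of 16 fits, that of ITGB3 in 12, that of ITGB2 in 11 and that of ITGA7 in 7. The highest edgeR adjusted p came without KU-cHCC-005, at 0.239 for LAMB2, 0.222 for ITGB3, 0.201 for ITGB2 and 0.132 for ITGA7. The count of genes higher ran from 0 to 6 over these fits.

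**Figure D5:**
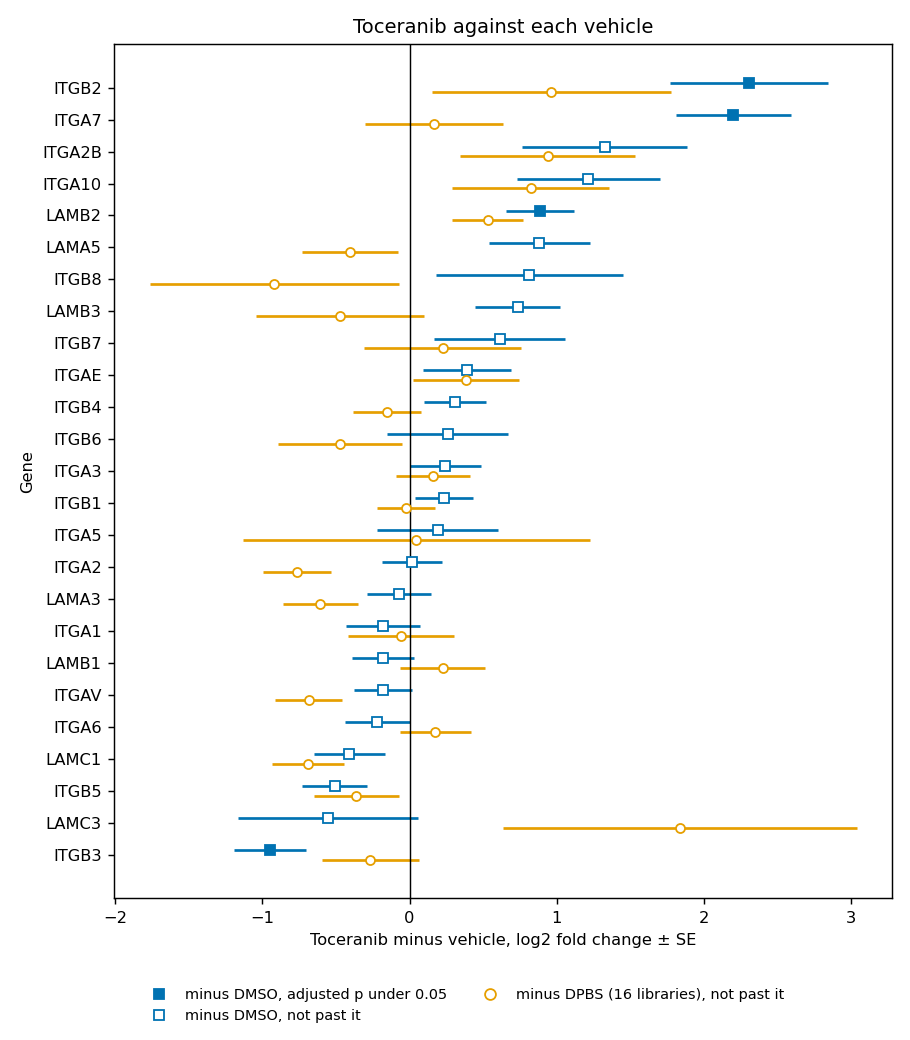
Toceranib minus DMSO (squares, 12 libraries, filled where the edgeR adjusted p was under 0.05) and toceranib minus DPBS (circles, 16 libraries) on the log2 scale, each ± SE, for the 25 tested genes. ITGA7 lies at 2.20 against DMSO and 0.16 against DPBS, and 10 of the 25 lie on opposite sides of 0 in the 2 comparisons, among them LAMA5, LAMC3, LAMB3 and ITGB8.

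Of the partner genes with a mean of 5 CPM or more, toceranib against DMSO changed 4. Caveolin CAV1 and the kindlin FERMT2 fell (-1.37 ± 0.25 and -0.78 ± 0.16), the anchoring collagen COL7A1 rose (1.89 ± 0.39) and SPP1 rose (2.83 ± 0.44). In the lists, 2 of 38 adaptors were called, both lower, as were 2 of 27 basement membrane genes and 1 of 21 ligands, all higher. These are shares of 5.26%, 7.41% and 4.76%, against 7.07% of all genes. None of these genes passed edgeR's test against DPBS, where 0% of all 15515 genes tested did, so that this says nothing particular to them. The mitochondrial share of counts was 3.95% to 8.90% with toceranib and 3.16% to 4.05% with DMSO, and its part was not tested.

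Set directly against each other in the same lines, the drugs differed at 12 of the 25 genes, where 37.1% of all tested genes were called (17.7% higher with sorafenib, 19.4% lower). Higher with sorafenib were ITGB3 (2.26 ± 0.25, edgeR adjusted p = 1.6e-04), LAMC3 (1.82), LAMB1 (1.26), ITGA3 (1.18), ITGA1 (0.95) and LAMA3 (0.74). Lower with sorafenib were ITGB8 (-2.87 ± 0.65, edgeR adjusted p = 0.0070), ITGB2 (-2.35), ITGA7 (-1.88), ITGB6 (-1.47), LAMB3 (-1.22) and ITGAE, the alpha chain of the E-cadherin receptor (-0.88). LAMB3 had 113, 513, 623 and 390 CPM with sorafenib, against 141, 1422, 1376 and 1508 CPM with toceranib. LAMB2, called for each drug against DMSO, differed by -0.17 ± 0.23 between them (adjusted p = 0.59). The drugs had different doses and vehicles, and ITGAE lost its call in 13 of 16 fits without a library or line (adjusted p up to 0.222, without KU-cHCC-005) and LAMC3 in 8 of 15 (up to 0.149, without KU-cHCC-004).

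Whether KU-cHCC-001 answered a drug differently was tested by an interaction. For sorafenib, 0 of the 25 genes were called and 0% of all genes, with 3 of the 25 and 6.89% of all genes at an unadjusted p under 0.05. The nearest was LAMB1, whose change in KU-cHCC-001 differed from that in the other lines by -1.07 ± 0.37 on the log2 scale (edgeR adjusted p = 0.60). For toceranib, 0 of the 25 were called, against 0.807% of all genes, and again 3 had an unadjusted p under 0.05, as did 16.6% of all genes. The nearest was LAMA5, whose change in KU-cHCC-001 differed from that in the other lines by -2.05 ± 0.50 (edgeR adjusted p = 0.085). It was called without the filter on low counts (-2.02, adjusted p = 0.0053) and without toceranib-treated KU-cHCC-004 (-2.34, adjusted p = 0.0086). KU-cHCC-001 has 1 library per treatment, so that these differences rest on single libraries.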

How the data were processed

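For each library the authors deposited a table of counts by gene symbol, in whole numbers that had not been normalized. Per the submitters' processing notes TopHat was used. Which version, counter, strand setting, genome build and annotation went with it is not given in the sources used here. The tables held 39954 entries for 39543 symbols, and entries of 1 symbol were summed (2 for ITGAX). All 37 integrin and laminin symbols described match the RefSeq gene table of UU_Cfam_GSD_1.0, used for names alone. Counts of overlapping or antisense genes are uncertain without a stated strand setting, and levels are compared within a gene only, since counts were not divided by transcript length.

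The 12 sorafenib, toceranib and DMSO libraries were fitted together in edgeR 4.0.16 (limma 3.58.1, R 4.3.3): filterByExpr with the line as group, TMM scaling, and robust quasi-likelihood fits of line plus treatment with 6 residual degrees of freedom, or with an interaction (4). KU-cHCC-001 was contrasted with the mean of the other lines. Toceranib against DPBS and DPBS against DMSO came from a fit of all 16 libraries. SE is the log2 fold change over the root of the F statistic. CPM use the TMM library sizes of the 12 libraries, and of the 16 for DPBS values and for markers.

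The line entered as a block because same-numbered libraries come from the same line. As a check, deviations from treatment means were correlated across genes. Same-line values were 0.750 to 0.892 between sorafenib and DMSO and 0.555 to 0.794 between toceranib and DMSO. By this measure each of these libraries matched its own line best. By squared difference over sampling noise, toceranib-treated KU-cHCC-002 was nearer to DMSO-treated KU-cHCC-004 (62.2 times noise) than to DMSO-treated KU-cHCC-002 (64.9 times). Alternatives were size factors and the Wald test of DESeq2 1.42.0, no filter, other library sets, no block, and leaving out each library or line. The scripts were tested on simulated data. The genes, lists and tests were chosen with earlier results of these data known. Beside those described, 1 gene of the set and 1 of the basement membrane list are not reported here. Full statistics are given for genes past the threshold, and up to 4 genes per list and direction with a mean of 5 CPM are named by size of change. Reads carry no molecular identifiers, so counting error understates the error of a value.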

Additional observations from a re-analysis of the deposited data

Results flagged for a closer look

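Among 75 sets of 4 libraries (25 genes in sorafenib, toceranib and DMSO), 4 had 1 library farther from the rest than Dixon's limit for 4 values allows; chance gives about 1 in 20. In each case it was the KU-cHCC-001 library. With toceranib, KU-cHCC-001 had 106 CPM of ITGA2, against 257 to 267 CPM in the other lines, 44.2 CPM of ITGB5, against 75.6 to 78.7 CPM, and 141 CPM of LAMB3, against 1376 to 1508 CPM. LAMC3 was highest in DMSO-treated KU-cHCC-001, at 3.65 CPM against 0 to 0.170 CPM. It passed the filter on low counts only through KU-cHCC-001, so that this flag carries no weight of its own.

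In the DPBS libraries, which the main comparisons do not use, both ITGA10 and LAMA4 passed 1 CPM while all DMSO libraries were below it. ITGA10 had 1.24 CPM (21 counts) in the library labelled 002, against 0.294 to 0.794 CPM with DMSO. LAMA4 had 7.05 CPM (119 counts) and 7.11 CPM (128 counts) in the libraries labelled 002 and 005, against 0 to 0.0529 CPM with DMSO. None of the 25 genes had a drug change in KU-cHCC-001 that passed the test of a difference from the other lines.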

How the results depend on the processing

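With all 16 libraries in the fit, 5 integrin and laminin genes were higher in KU-cHCC-001 in place of 8. For sorafenib against DMSO, 4 were higher and 1 lower; the counts were 3 and 0 with all 16 libraries, 1 and 0 with no replicate block, 10 and 3 with the 8 libraries of both groups, and 7 and 2 by DESeq2's test, and without a filter 0 were lower. For toceranib against DMSO, 3 were higher and 1 lower; the counts were 1 and 0 with all 16 libraries, and 0 and 0 against DPBS, with no replicate block, with 8 libraries, and without the toceranib libraries of KU-cHCC-004 and KU-cHCC-005. Between the drugs, 6 were higher and 6 lower; the counts were 4 and 3 with all 16 libraries and 1 and 0 with no replicate block, and 2 were higher without those toceranib libraries. Without a filter, the toceranib interaction called 1 gene lower, LAMA5, in place of 0. The causes were not tested.

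Leaving out each library or line in turn gave 6 to 10 genes higher and 6 to 8 lower in KU-cHCC-001, 2 to 7 and 0 to 2 with sorafenib, 0 to 6 and 0 to 2 with toceranib, 3 to 7 and 3 to 8 between the drugs, 0 and 0 for the sorafenib interaction, and 0 and 0 to 1 for the toceranib interaction. Interactions were fitted again without single libraries only (10 fits each) and not without a line. They were not run without the DMSO library of KU-cHCC-001 or without that line's library of the drug tested, since they then cannot be estimated. The line difference within the 4 DMSO libraries has no test.

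Genes that changed sign did so uncalled. Listed here are changes of sign by more than the larger SE of the main and the alternative fit. Those within that SE are not listed. With 1 library or line left out, ITGB2 ran between -0.64 and 0.56 with sorafenib. With 1 library left out, the sorafenib interaction of ITGB8 ran between -0.94 and 0.84. Against DPBS, toceranib gave ITGA2 -0.77, ITGA6 0.18, ITGB1 -0.023, ITGB4 -0.15, ITGB6 -0.47, ITGB8 -0.92, LAMA5 -0.40, LAMB1 0.22, LAMB3 -0.47 and LAMC3 1.84. Without the toceranib libraries of KU-cHCC-004 and KU-cHCC-005 it gave ITGA6 0.083 and ITGAV 0.10. With 1 library or line left out, the toceranib change ran between -0.19 and 0.16 for ITGA2, -0.037 and 0.44 for ITGA3, -0.25 and 0.65 for ITGA5, -0.49 and 0.039 for ITGA6, -0.19 and 0.73 for ITGB6, and -0.29 and 0.15 for LAMA3. The toceranib interaction ran between -0.62 and 0.99 for ITGB2. Between the drugs it ran between -0.29 and 0.49 for ITGA10, -0.42 and 0.040 for ITGA6, -0.20 and 0.19 for ITGAV, -0.26 and 0.13 for ITGB4, -0.75 and 0.080 for ITGB7, and -0.40 and 0.14 for LAMB2. With sorafenib it ran between -0.33 and 0.019 for ITGAV. The difference of KU-cHCC-001 ran between -0.29 and 0.24 for ITGA3 and -1.39 and 0.65 for ITGB2, and ITGA3 was -0.28 in the DMSO and sorafenib libraries alone. Over single genes, 2712 of 2997 alternative values were counted as unchanged. These kept their side of the threshold and their direction, or changed sign while uncalled in both fits and by no more than the larger SE. Values of the DMSO libraries alone, which have no test, were counted by their distance from the main value.

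A single count is worth 0.0456 to 0.0833 CPM, so values under 1 CPM rest on few counts and small differences there were not detectable at this depth.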
